A study of Homo sapiens with 6 samples.

Results

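The genes described here are 53 developmental transcription factors of the kind that Polycomb complexes typically occupy in embryonic stem cells. They were taken by symbol from a list and looked up in a count table of 53715 genes. All 53 symbols were in the table, 50 had at least 1 count in some library, and 24 had enough counts to be tested, among 19156 tested genes. Polycomb binding was not measured in these libraries, so the name of the set rests on what is known of the genes and not on these data.

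Cells of the human embryonic stem cell line H9, grown in the primed state, were transfected with a fluorescein-labelled oligonucleotide at 25 nM, sorted for the label 48 hours later and sequenced as directional poly(A) RNA. There were 3 groups of 2 libraries each. ASO-L1 is an antisense oligo against LINE1 (L1), a transposable element with many copies in the human genome, sO-L1 is the sense oligo of L1, and ASO-Ctr is an antisense oligo with no specific target. Every group, controls included, also received ISRIB (0.7 uM), a blocker of the integrated stress response, emricasan (5 uM), a caspase inhibitor, and the ROCK inhibitor Y-27632 (10 uM), all taken off after 24 hours. The labels give the medium after transfection as mTeSR in 1 place and as RSeT in another. They do not say whether the libraries of a group came from separate cultures. The p-values here thus measure the spread between these libraries, which may be technical. That spread was estimated largely across genes and not from each gene's own libraries. L1 transcripts were not analysed here, so nothing in the data checked which library received which oligo.

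Polycomb repressive complex 2 places a repressive methyl mark on histones, and Polycomb repressive complex 1 compacts the marked chromatin and adds ubiquitin to a histone. In embryonic stem cells both sit mainly at promoters dense in CpG dinucleotides, many of which belong to transcription factors that later set the identity of germ layers and organs. Many of these promoters carry an activating mark as well, a state called bivalent, in which the gene is transcribed little or not at all until the cell differentiates.

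A promoter window of 250 bases upstream of the start was held in the RefSeq table (build GRCh38.p14) for 40 of the 53 genes, FOXA2 not among them. The sequence searched was CG, which reads the same on both strands. The windows of the members held a median of 20 CG dinucleotides (range 7 to 45), against 11 over all 27305 windows of the table and 20 over the 11349 windows of tested genes. At least 10 were found in 97.5% of the members' windows, 51.9% of all windows and 81.0% of those of tested genes. Windows of the 17 tested members that had one held a median of 22, and those of the 23 untested members a median of 20. So the genes too low to test had windows about as rich in CG as the genes that could be tested. The windows of 4 members are printed from 5′ to 3′ on the gene's strand, with each CG in capitals. PAX9 (chr14:36657318-36657567, plus strand, 13 CG) and GBX2 (chr2:236168387-236168636, minus strand, 28 CG) belong to genes lower in ASO-L1. LHX2 (chr9:124011518-124011767, plus strand, 25 CG) belongs to a gene higher in ASO-L1, and HAND1 (chr5:154478228-154478477, minus strand, 16 CG) to a gene with no count in any library. The windows of PAX9 and HAND1 held fewer CG than the members' median, and those of GBX2 and LHX2 more.
PAX9: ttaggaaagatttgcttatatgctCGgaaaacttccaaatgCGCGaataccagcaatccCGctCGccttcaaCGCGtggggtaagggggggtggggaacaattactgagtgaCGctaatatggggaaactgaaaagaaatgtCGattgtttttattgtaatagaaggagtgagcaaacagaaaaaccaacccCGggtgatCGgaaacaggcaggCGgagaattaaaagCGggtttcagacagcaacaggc
GBX2: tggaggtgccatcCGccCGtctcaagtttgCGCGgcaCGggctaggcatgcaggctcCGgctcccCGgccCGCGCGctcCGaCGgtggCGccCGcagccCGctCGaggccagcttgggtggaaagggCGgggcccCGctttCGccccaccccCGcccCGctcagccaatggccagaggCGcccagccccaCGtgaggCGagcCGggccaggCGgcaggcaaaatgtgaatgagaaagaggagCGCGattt
LHX2: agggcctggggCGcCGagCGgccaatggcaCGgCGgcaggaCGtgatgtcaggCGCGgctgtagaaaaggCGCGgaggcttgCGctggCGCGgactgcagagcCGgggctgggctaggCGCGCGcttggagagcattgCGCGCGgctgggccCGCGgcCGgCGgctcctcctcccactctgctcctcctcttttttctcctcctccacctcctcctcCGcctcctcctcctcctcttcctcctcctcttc
HAND1: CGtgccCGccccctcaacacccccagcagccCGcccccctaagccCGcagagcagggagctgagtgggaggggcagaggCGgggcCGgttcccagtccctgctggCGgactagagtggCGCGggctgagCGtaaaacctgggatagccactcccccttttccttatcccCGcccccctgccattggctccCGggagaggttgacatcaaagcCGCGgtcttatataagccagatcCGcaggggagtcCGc

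The libraries held 46223290 and 57899009 counts in ASO-L1, 34665403 and 60999413 in sO-L1, against 18897936 and 67192937 in ASO-Ctr (replicates 1 and 2 in each case, the order kept throughout). At least 1 count was found for 40 and 41 members in ASO-L1, 34 and 40 in sO-L1, against 30 and 38 in ASO-Ctr. The shallowest library, ASO-Ctr replicate 1, detected the fewest. When each library's counts were scaled down to that total, the number of members expected with at least 1 count was 35.5 and 34.0 in ASO-L1, 32.4 and 32.6 in sO-L1, against 30.0 and 30.9 in ASO-Ctr. At equal depth the libraries were closer together, with both ASO-L1 libraries above the other 4, a difference that was not tested. At least 10 counts were reached by 23 and 23 members in ASO-L1, 16 and 20 in sO-L1, against 14 and 23 in ASO-Ctr. A count of 0 allows up to 3 counts, or 0.0437 CPM (counts scaled to a common library total) in the deepest and 0.159 CPM in the shallowest library, from counting error alone. It does not show that a gene was silent.

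**Figure D1:**
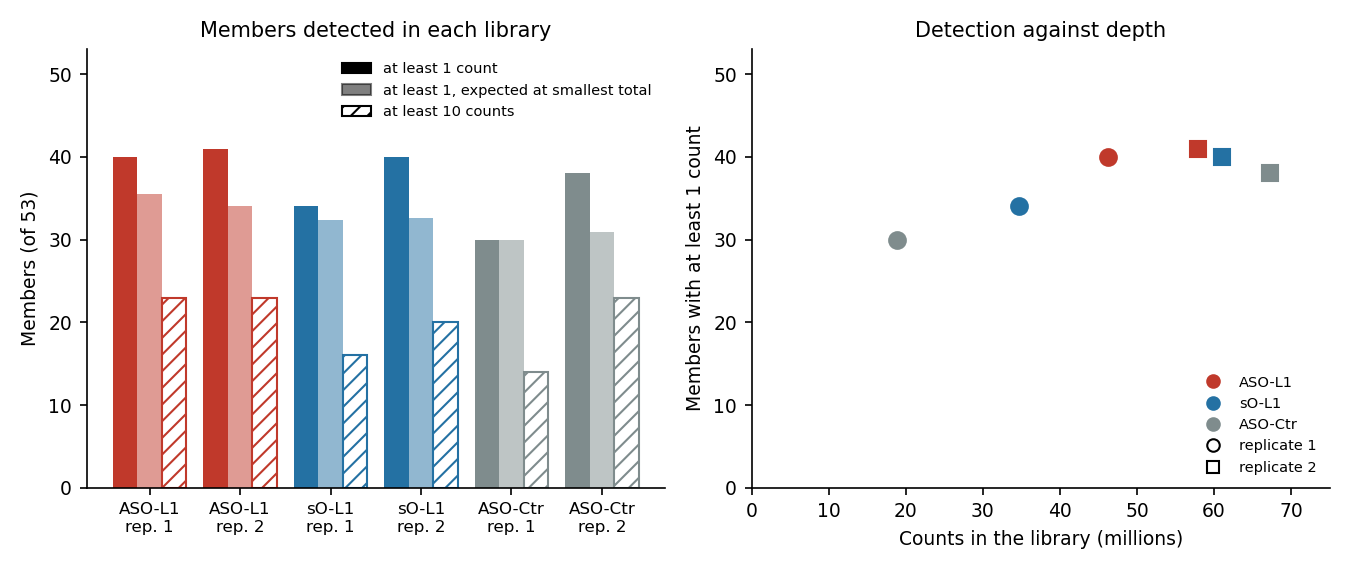
Left, number of the 53 members with at least 1 count (solid), the number expected with at least 1 count at the smallest library total (pale) and the number with at least 10 counts (hatched), for each library. Right, members with at least 1 count against the library's total count. The library with 18897936 counts detected 30 members, and the 3 deepest libraries detected between 38 and 41.

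The members as a set were rare transcripts. Together they took 43.8 and 32.8 CPM in ASO-L1, 43.2 and 33.5 in sO-L1, against 44.1 and 34.6 in ASO-Ctr. These sums overlapped fully between the groups and were higher in replicate 1 of each group. The 29 untested members contributed 1.16 and 0.933 CPM in ASO-L1, 0.939 and 0.762 in sO-L1, against 0.903 and 0.7 in ASO-Ctr. Per kilobase of exon (GENCODE 29 lengths), the median of the 24 tested members was 0.144 CPM, against 3.59 CPM over the 15434 tested genes with a length. None of the 24 members lay above the median of all tested genes. The highest were GBX2 at 2.3, OLIG2 at 2.16, LHX2 at 2.02 and FOXA2 at 1.16 CPM per kilobase. The pluripotency factors POU5F1 and SOX2 had 373 and 176 CPM per kilobase, and EZH2, the catalytic subunit of Polycomb repressive complex 2, had 28.3. These low levels do not show that Polycomb was bound. In bulk RNA, fewer cells with a transcript and less transcript per cell cannot be told apart.

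The counts were unevenly spread over the members. Of 10641 counts over all members and libraries, 10390 came from the 24 tested members and 251 from the 29 untested ones. OLIG2, LHX2, GBX2 and FOXA2 held 53.7% of the total, with 2070, 1469, 1344 and 835 counts. A count in every library was found for 25 members, and 14 members had at least 10 in every library. By group, 12 of the 18 members of brain, spinal cord and eye were tested, and 5 of the 9 of mesendoderm and endoderm. The tested were 4 of 15 in heart, mesoderm and mesenchyme, 3 of 8 in trophectoderm, surface ectoderm and neural crest, and 0 of 3 HOX genes. The filter on low counts is set by group size, so a member with enough counts in a single group could pass. At its edge, EN2 passed with 35 counts in all, while MSX1 with 36 did not.

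**Figure D2:**
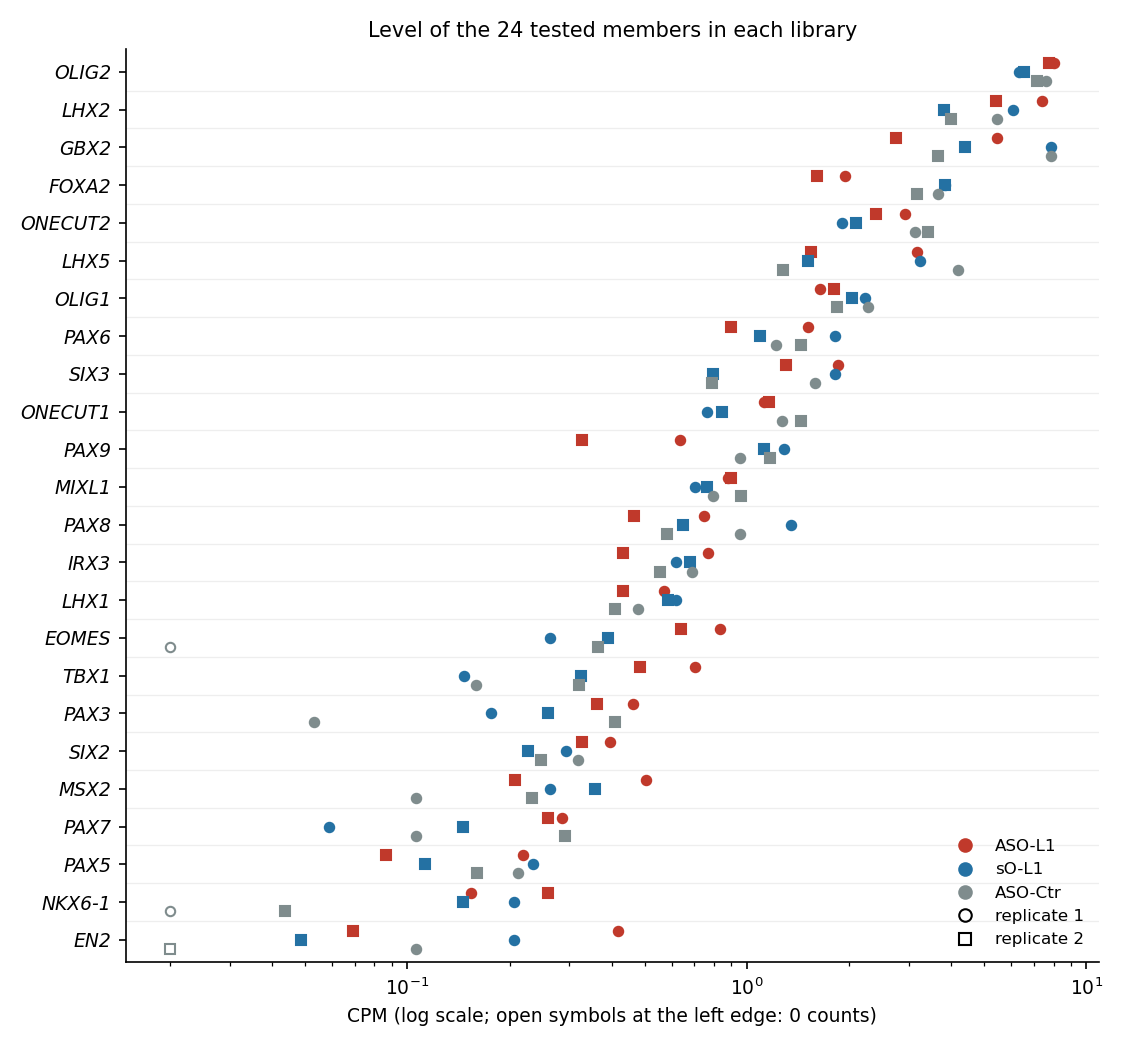
Level of each tested member in every library, in CPM on a log scale, with groups by colour and replicates by shape. Open symbols at the left edge are libraries with 0 counts. Levels ran from about 8 CPM for OLIG2 to 0 for EOMES, NKX6-1 and EN2 in 1 ASO-Ctr library each, and the ASO-L1 points of FOXA2 and PAX9 lie left of the other groups.

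ASO-L1 against sO-L1 sets oligos of opposite sense for the same element side by side. FOXA2, PAX9 and GBX2 were lower in ASO-L1, and LHX2, OLIG2, TBX1 and EOMES were higher. The remaining 17 tested members were not called at a Benjamini-Hochberg adjusted p under 0.05 in edgeR's quasi-likelihood test, fitted with replicate number as a blocking term. Over all tested genes, 10.3% were called higher, 12.7% lower and 23.0% in either direction, so nothing particular to the members is read from these counts. The median log2 fold change was 0.28 over the tested members and 0 over all genes, and the median SE was 0.29 against 0.09, since the members had few counts. Without the replicate block 1 member, FOXA2, was still called lower and 0 higher, with 0.924% and 0.914% of all genes called in those directions. The groups did not overlap for 9 members higher and 4 lower in ASO-L1, against 23.6% and 23.4% of all tested genes.

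ASO-L1 against ASO-Ctr sets the same libraries beside the oligo with no specific target. FOXA2, PAX9 and GBX2 were again lower in ASO-L1, and LHX2, EOMES and NKX6-1 were higher. The other 18 were not called. Of all tested genes 9.88% were called higher, 11.6% lower and 21.5% in either direction, so these counts too say nothing particular about the members. Their median log2 fold change was 0.05. Without the replicate block FOXA2 was the 1 member called lower and 0 were called higher (1.05% and 0.903% of all genes). No overlap between groups was found for 5 members higher and 5 lower, against 23.8% and 24.8% of genes. Both comparisons use the same ASO-L1 libraries, so the genes they have in common are not independent evidence of each other.

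The pair sO-L1 and ASO-Ctr leaves the antisense L1 oligo aside. ONECUT2 was lower in sO-L1, no member was called higher, and 23 were not called. Of all tested genes 0.658% were called higher, 1.06% lower and 1.72% in either direction. At an unadjusted p under 0.05 there were 3 members. Without the replicate block edgeR called 0 members and 0 genes of the whole table, and 3 members had an unadjusted p under 0.05. DESeq2 gave an adjusted p to 0 of the 24 tested members in this comparison, so it could call none. By DESeq2, 1 member had an unadjusted p under 0.05. The groups did not overlap for 4 members higher and 4 lower in sO-L1, against 14.5% and 15.2% of genes. The median log2 fold change of the tested members was 0.05.

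**Figure D3:**
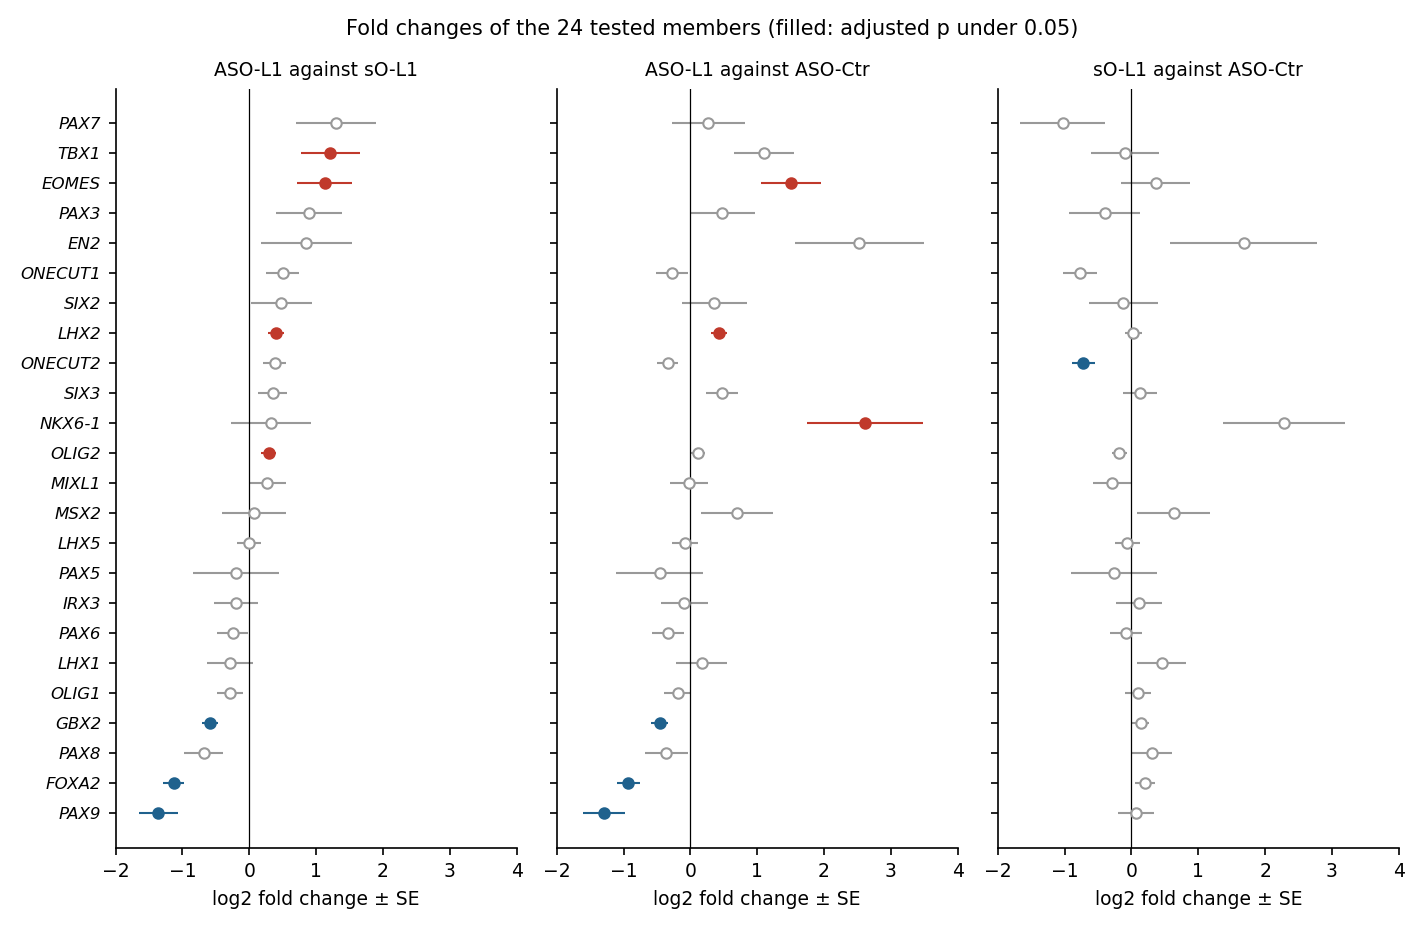
Log2 fold change ± SE of each tested member in the 3 comparisons, from edgeR with the replicate block (n = 2 libraries per group). Filled points passed an adjusted p of 0.05, red for higher and blue for lower. FOXA2, PAX9, GBX2 and LHX2 are filled in both ASO-L1 comparisons, and ONECUT2 is the only filled point in sO-L1 against ASO-Ctr.

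Among the genes of mesendoderm and endoderm, FOXA2 had the smallest adjusted p of the whole set. FOXA2 is a pioneer factor of definitive endoderm, notochord and floor plate. It had 1.95 and 1.61 CPM in ASO-L1, 3.82 and 3.84 in sO-L1, against 3.66 and 3.16 in ASO-Ctr, which corresponds to 89 and 93, 130 and 237, and 69 and 217 counts. Both ASO-L1 libraries were below all 4 others. FOXA2 was lower in ASO-L1 than in sO-L1, with a log2 fold change of -1.13 ± 0.16 (0.458-fold; adjusted p = 2.99e-07, or 0.0213 without the block). Against ASO-Ctr the change was -0.93 ± 0.17 (0.525-fold; adjusted p = 3.2e-05, or 0.0428 without the block). It was called in every alternative run in both comparisons, and with 1 library left out the log2 fold change lay between -1.24 and -0.99 and between -1.02 and -0.82. Between sO-L1 and ASO-Ctr it was 0.20 ± 0.15 (adjusted p = 0.647).

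EOMES, a T-box factor of the primitive streak and of definitive endoderm, went the other way. It had 0.833 and 0.639 CPM in ASO-L1, 0.264 and 0.389 in sO-L1, against 0 and 0.364 in ASO-Ctr. In counts these were 38 and 37, 9 and 24, and 0 and 25. The ASO-L1 libraries were above all others. The log2 fold change was 1.13 ± 0.41 against sO-L1 (adjusted p = 0.0406, or 0.362 without the block) and 1.5 ± 0.45 against ASO-Ctr (adjusted p = 0.0119, or 0.251 without the block). The call depended on the libraries and tool used. Against sO-L1 the change was 2.14 without ASO-L1 replicate 2, and the call was lost with limma-voom (0.93, adjusted p = 0.242) and without ASO-L1 replicate 1 (0.50, adjusted p = 0.685), sO-L1 replicate 1 (0.99, 0.311) or sO-L1 replicate 2 (1.36, 0.248). Against ASO-Ctr the change was 2.67 without ASO-L1 replicate 2. It was not called without ASO-L1 replicate 1 (1.03) or without ASO-Ctr replicate 1, the library at 0 (0.96). Without ASO-Ctr replicate 2 the change was 8.04, with only the library at 0 left in that group.

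ONECUT2 and ONECUT1 are paired cut and homeodomain factors of liver, pancreas and neurons. ONECUT2 had 2.92 and 2.4 CPM in ASO-L1, 1.91 and 2.09 in sO-L1, against 3.13 and 3.41 in ASO-Ctr. The 3 groups did not overlap, with sO-L1 lowest and ASO-Ctr highest. ONECUT2 was lower in sO-L1 than in ASO-Ctr, with a log2 fold change of -0.72 ± 0.17 (0.606-fold; adjusted p = 0.0145, or 1.0 without the block). That call was lost with limma-voom (adjusted p = 0.0655) and without sO-L1 replicate 1 (0.667), sO-L1 replicate 2 (0.136) or ASO-Ctr replicate 2 (0.318). In ASO-L1 its log2 fold change was 0.38 ± 0.17 against sO-L1 (adjusted p = 0.097) and -0.34 ± 0.16 against ASO-Ctr (adjusted p = 0.135). ONECUT1 had 1.12 and 1.16 CPM in ASO-L1, 0.763 and 0.843 in sO-L1, against 1.27 and 1.44 in ASO-Ctr. Its libraries fell in the same order of groups as those of ONECUT2, and sO-L1 against ASO-Ctr gave -0.77 ± 0.25 (adjusted p = 0.12). MIXL1, a homeobox factor of the primitive streak, had 0.877 and 0.898 CPM in ASO-L1, 0.705 and 0.762 in sO-L1, against 0.796 and 0.962 in ASO-Ctr. edgeR did not call it in any of the 3 comparisons.

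The mesoderm marker list summed to 122 to 132 CPM in ASO-L1, 109 to 114 in sO-L1 and 128 to 131 in ASO-Ctr, nearly all of it from KDR (115 and 124 CPM in ASO-L1). Of its 9 tested genes, 1 was called higher and 0 lower in each ASO-L1 comparison, with 6 negative estimates against sO-L1 and 7 against ASO-Ctr. Over all tested genes, 10.3% were called higher and 12.7% lower against sO-L1, and 9.88% and 11.6% against ASO-Ctr. Primed embryonic stem cell markers, POU5F1 and SOX2 among them, summed to 10600 to 10900 CPM in ASO-L1, 10500 to 11000 in sO-L1 and 10400 to 11100 in ASO-Ctr. Of the 16 tested, 6 were called higher and 3 lower in ASO-L1 against sO-L1, and 4 and 4 against ASO-Ctr. The similar sums thus held calls in both directions. Without the block 0 were called in either comparison. The median SE of these markers was 0.05, against 0.09 over all tested genes. The part of other cells in the members' differences was not tested.

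In the group of heart, mesoderm and mesenchyme, PAX9 was lower and TBX1 higher in ASO-L1. PAX9, a paired-box factor of the pharyngeal pouches, teeth and vertebral column, had 0.636 and 0.328 CPM in ASO-L1, 1.29 and 1.12 in sO-L1, against 0.956 and 1.17 in ASO-Ctr (29 and 19, 44 and 69, and 18 and 80 counts). Both ASO-L1 libraries were below the other 4. PAX9 was lower in ASO-L1 than in sO-L1, with a log2 fold change of -1.36 ± 0.29 (0.39-fold; adjusted p = 0.000447, or 0.0833 without the block). Against ASO-Ctr the change was -1.29 ± 0.31 (0.41-fold; adjusted p = 0.00151, or 0.118 without the block). Without ASO-L1 replicate 2, the lower of that pair, the calls were lost, at -0.90 against sO-L1 (adjusted p = 0.0904) and -0.80 against ASO-Ctr (adjusted p = 0.194). The second was also lost without ASO-Ctr replicate 2 (-0.80, adjusted p = 0.277).

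PAX9 shares exonic sequence with SLC25A21, a mitochondrial carrier gene on the opposite strand, and whether the reads were counted by strand is not given in the sources used here. SLC25A21 itself had 3.75 and 4.46 CPM in ASO-L1, 7.57 and 7.75 in sO-L1, against 6.11 and 6.6 in ASO-Ctr, lower in both ASO-L1 libraries. Its log2 fold change was -0.89 ± 0.12 against sO-L1 (adjusted p = 4.31e-08, or 0.0188 without the block) and -0.63 ± 0.12 against ASO-Ctr (adjusted p = 0.000107, or 0.0622 without the block). Without strand in the counting, reads of the pair cannot be told apart, so the PAX9 value is uncertain.

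TBX1, a T-box factor of pharyngeal and second heart field development, had 0.702 and 0.484 CPM in ASO-L1, 0.147 and 0.324 in sO-L1, against 0.159 and 0.321 in ASO-Ctr (32 and 28, 5 and 20, and 3 and 22 counts). Both ASO-L1 libraries were above the rest. The log2 fold change was 1.21 ± 0.44 against sO-L1 (adjusted p = 0.0383, or 0.233 without the block) and 1.1 ± 0.45 against ASO-Ctr (adjusted p = 0.0749, not called). Without ASO-L1 replicate 2 the change against sO-L1 was 2.20 (adjusted p = 0.013). That call was lost with limma-voom (adjusted p = 0.096) and without ASO-L1 replicate 1 (0.59, adjusted p = 0.662), sO-L1 replicate 1 (0.77, 0.46) or sO-L1 replicate 2 (2.04, 0.0769). TBX1 overlaps GNB1L on the opposite strand, a WD-repeat gene with 11.6 and 10.7 CPM in ASO-L1, 8.16 and 9.42 in sO-L1, against 10.0 and 10.4 in ASO-Ctr. GNB1L was higher in ASO-L1 than in sO-L1, with a log2 fold change of 0.33 ± 0.09 (adjusted p = 0.00769, or 0.196 without the block), so the TBX1 value carries the same uncertainty as that of PAX9.

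PAX8, of thyroid and kidney, and SIX2, of kidney progenitors, were not called by edgeR in any of the 3 comparisons. PAX8 had 0.746 and 0.466 CPM in ASO-L1, 1.35 and 0.648 in sO-L1, against 0.956 and 0.583 in ASO-Ctr. SIX2 had 0.395 and 0.328 CPM in ASO-L1, 0.294 and 0.227 in sO-L1, against 0.319 and 0.248 in ASO-Ctr. The PAX8 libraries overlapped between groups, whereas the lowest SIX2 value of ASO-L1 lay just above the highest of the others. For PAX8 the log2 fold change against sO-L1 was -0.68 ± 0.29 (adjusted p = 0.0923), with a 95% interval from -1.25 to -0.10.

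Of the 8 trophectoderm, surface ectoderm and neural crest genes, 3 were tested and 0 called by edgeR in any comparison, with 1 at an unadjusted p under 0.05 in ASO-L1 against sO-L1 and 0 in the others. PAX3, a neural crest and muscle progenitor factor, had 0.461 and 0.363 CPM in ASO-L1, 0.176 and 0.259 in sO-L1, against 0.0531 and 0.408 in ASO-Ctr. PAX7, its close relative, had 0.285 and 0.259 CPM in ASO-L1, 0.0587 and 0.146 in sO-L1, against 0.106 and 0.292 in ASO-Ctr. For both, ASO-L1 lay above sO-L1 without overlap, while the ASO-Ctr libraries spanned a wide range. The log2 fold change of PAX7 against sO-L1 was 1.30 ± 0.60 (adjusted p = 0.121) on 13 and 15 against 2 and 9 counts. PAX7 was below the filter's minimum in both sO-L1 libraries and in ASO-Ctr replicate 1, so it would not have passed without its ASO-L1 counts. Its comparison with sO-L1, the lack of overlap included, is therefore not independent of the filter. MSX2, a homeobox gene of limb and craniofacial mesenchyme, had 0.504 and 0.207 CPM in ASO-L1, 0.264 and 0.357 in sO-L1, against 0.106 and 0.233 in ASO-Ctr, with overlap. The list of trophoblast and amnion markers summed to 13.8 to 14.0 CPM in ASO-L1, 13.2 to 14.2 in sO-L1 and 13.6 to 14.7 in ASO-Ctr, with KRT7 as the largest part. In that list 1 of 10 genes was at 0 in every library, and ISL1 is also a member. Of its 4 tested genes, 1 was called higher and 0 lower in ASO-L1 against sO-L1 (10.3% and 12.7% of all tested genes). Against ASO-Ctr 0 were higher and 1 lower (9.88% and 11.6%). Without the block 0 of the 4 were called in either comparison. The similar sums thus held calls in both directions. Fibroblast markers summed to 411 to 412 CPM in ASO-L1, 394 to 407 in sO-L1 and 409 to 416 in ASO-Ctr, with THY1, which the primed list also holds, as the largest part. COL1A1 had 77.1 and 72.5 CPM in ASO-L1, 45.6 and 51.1 in sO-L1, against 42.9 and 54.1 in ASO-Ctr. Of the 6 tested fibroblast genes, 1 was called higher and 0 lower in ASO-L1 against sO-L1 (10.3% and 12.7% of all tested genes). Against ASO-Ctr 1 was higher and 1 lower (9.88% and 11.6%). Without the block 1 was higher and 0 lower in each. Estimates were positive for 2 and negative for 4 against sO-L1, and for 3 and 3 against ASO-Ctr. The part of other cells in these members' values was not tested.

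In the brain, spinal cord and eye group GBX2 was lower and LHX2 higher in ASO-L1. Neuroectoderm markers outside the set summed to 662 to 665 CPM in ASO-L1, 634 to 661 in sO-L1 and 610 to 635 in ASO-Ctr, most of it from NES and TUBB3. Of the 10 genes, 0 were called higher and 2 lower in ASO-L1 against sO-L1 (10.3% and 12.7% of all tested genes). Against ASO-Ctr 1 was higher and 3 lower (9.88% and 11.6%), and without the block 0 were called in either comparison. The part of these markers in the members' values was not tested. GBX2, a homeobox gene of the anterior hindbrain, had 5.46 and 2.75 CPM in ASO-L1, 7.84 and 4.38 in sO-L1, against 7.86 and 3.66 in ASO-Ctr. Replicate 1 was above replicate 2 in every group by more than the groups differed, so the groups overlapped, while within each replicate number ASO-L1 was the lowest. With that shift removed, GBX2 was lower in ASO-L1 than in sO-L1, with a log2 fold change of -0.59 ± 0.12 (0.662-fold; adjusted p = 0.000262). The adjusted p without the block was 0.552, so the call depends on treating the replicate numbers as pairs. Against ASO-Ctr the change was -0.46 ± 0.13 (0.729-fold; adjusted p = 0.00826, or 0.692 without the block). That second call was also lost with DESeq2 (adjusted p = 0.0861) and without ASO-Ctr replicate 1 (0.154), ASO-L1 replicate 1 (0.0612) or ASO-L1 replicate 2 (0.0571).

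LHX2, a LIM-homeobox gene of the forebrain and eye field, had 7.41 and 5.41 CPM in ASO-L1, 6.08 and 3.81 in sO-L1, against 5.47 and 3.98 in ASO-Ctr. The groups overlapped, and ASO-L1 was the highest within each replicate number. The log2 fold change was 0.40 ± 0.12 against sO-L1 (1.32-fold; adjusted p = 0.0102, or 0.48 without the block) and 0.43 ± 0.12 against ASO-Ctr (1.35-fold; adjusted p = 0.00835, or 0.391 without the block). DESeq2 did not call LHX2 in either comparison (adjusted p = 0.132 and 0.1). The call was also lost without ASO-L1 replicate 2 (adjusted p = 0.133 and 0.141) and without a library of the control concerned, namely sO-L1 replicate 2 (0.29), ASO-Ctr replicate 1 (0.0732) or ASO-Ctr replicate 2 (0.0526).

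OLIG2, a basic helix-loop-helix factor of motor neuron and oligodendrocyte progenitors, had the most counts of any member. It stood at 8.05 and 7.77 CPM in ASO-L1, 6.31 and 6.55 in sO-L1, against 7.59 and 7.16 in ASO-Ctr. The ASO-L1 libraries were above all others by a small margin, and sO-L1 was the lowest group. The log2 fold change was 0.29 ± 0.11 against sO-L1 (1.22-fold; adjusted p = 0.0384, or 0.261 without the block) and 0.11 ± 0.11 against ASO-Ctr (adjusted p = 0.521). The call was lost when any of the 4 libraries compared was left out (adjusted p = 0.224 and 0.134 without ASO-L1 replicates 1 and 2, 0.346 and 0.147 without those of sO-L1), with DESeq2 (0.21) and with limma-voom (0.0598). Its neighbour OLIG1, of the same lineage, had 1.64 and 1.81 CPM in ASO-L1, 2.23 and 2.04 in sO-L1, against 2.28 and 1.84 in ASO-Ctr, with a log2 fold change of -0.29 ± 0.19 against sO-L1 (adjusted p = 0.285). The 2 genes thus had estimates of opposite sign in that comparison, and the difference between them was not tested.

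NKX6-1, a homeobox gene of the ventral spinal cord and of pancreatic beta cells, had few counts in ASO-Ctr. It had 0.154 and 0.259 CPM in ASO-L1, 0.206 and 0.146 in sO-L1, against 0 and 0.0437 in ASO-Ctr. In counts these were 7 and 15, 7 and 9, and 0 and 3, so both L1 oligo groups had more than ASO-Ctr and overlapped with each other. The 0 in ASO-Ctr replicate 1 allows up to 0.159 CPM, a level as high as some values of the other groups. The fitted log2 fold change of ASO-L1 against ASO-Ctr was 2.61 ± 0.87 (adjusted p = 0.024, or 0.148 without the block). Its level in ASO-Ctr was below the filter's minimum, so it was tested only because of its counts in the L1 oligo groups. The test against ASO-Ctr is therefore not independent of the filter. Without ASO-L1 replicate 2, with only the libraries compared, or with the stricter CPM filter, NKX6-1 did not pass and had no fit in this comparison. From summed counts the ratio was 6.2, with an exact 95% interval of 1.86 to 32.3 that covers counting error only. The call was lost without ASO-L1 replicate 1 (adjusted p = 0.0765), ASO-Ctr replicate 1 (0.121), ASO-Ctr replicate 2 (0.143) or sO-L1 replicate 1 (0.0504). sO-L1 against ASO-Ctr gave a ratio of 4.87 (interval 1.39 to 26.1) and was not called (adjusted p = 0.245).

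The other members of brain, spinal cord and eye were not called by edgeR in any of the 3 comparisons, and limma-voom called 1 of them, EN2, in ASO-L1 against ASO-Ctr. LHX5, of forebrain and spinal interneurons, had 3.16 and 1.54 CPM in ASO-L1, 3.23 and 1.51 in sO-L1, against 4.19 and 1.28 in ASO-Ctr. SIX3, a forebrain and eye factor, had 1.86 and 1.3 CPM in ASO-L1, 1.82 and 0.794 in sO-L1, against 1.59 and 0.787 in ASO-Ctr. In both genes replicate 1 was above replicate 2 in every group. PAX6, of eye, forebrain and spinal cord, had 1.51 and 0.898 CPM in ASO-L1, 1.82 and 1.09 in sO-L1, against 1.22 and 1.44 in ASO-Ctr. Its exons overlap ELP4, an Elongator subunit gene on the opposite strand that was lower in ASO-L1 (-0.61 ± 0.08 against sO-L1, adjusted p = 8.49e-08, or 0.0205 without the block). The interval of PAX6 itself against sO-L1 ran from -0.71 to 0.20 on the log2 scale.

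IRX3, an Iroquois homeobox gene of the neural tube, had 0.768 and 0.432 CPM in ASO-L1, 0.617 and 0.681 in sO-L1, against 0.69 and 0.554 in ASO-Ctr. LHX1, of kidney and spinal interneurons, had 0.57 and 0.432 CPM in ASO-L1, 0.617 and 0.584 in sO-L1, against 0.478 and 0.408 in ASO-Ctr. IRX3 overlapped between all groups, while both LHX1 values of sO-L1 were above the rest. PAX5, a factor of the midbrain and of B cells, had 0.219 and 0.0864 CPM in ASO-L1, 0.235 and 0.113 in sO-L1, against 0.212 and 0.16 in ASO-Ctr. EN2, a midbrain and hindbrain homeobox gene, had 0.417 and 0.0691 CPM in ASO-L1, 0.206 and 0.0486 in sO-L1, against 0.106 and 0 in ASO-Ctr. EN2 had the fewest counts in all of the tested members, and replicate 1 was above replicate 2 in each group. Its level in ASO-Ctr was below the filter's minimum, so EN2 too was tested only because of its counts in the L1 oligo groups. The ratio of summed EN2 counts in ASO-L1 to ASO-Ctr was 9.72 (23 against 2 counts, exact 95% interval 2.4 to 85.0, counting error only). edgeR did not call it (adjusted p = 0.0559, or 0.321 without the block), whereas limma-voom did (adjusted p = 0.00902).

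**Figure D4:**
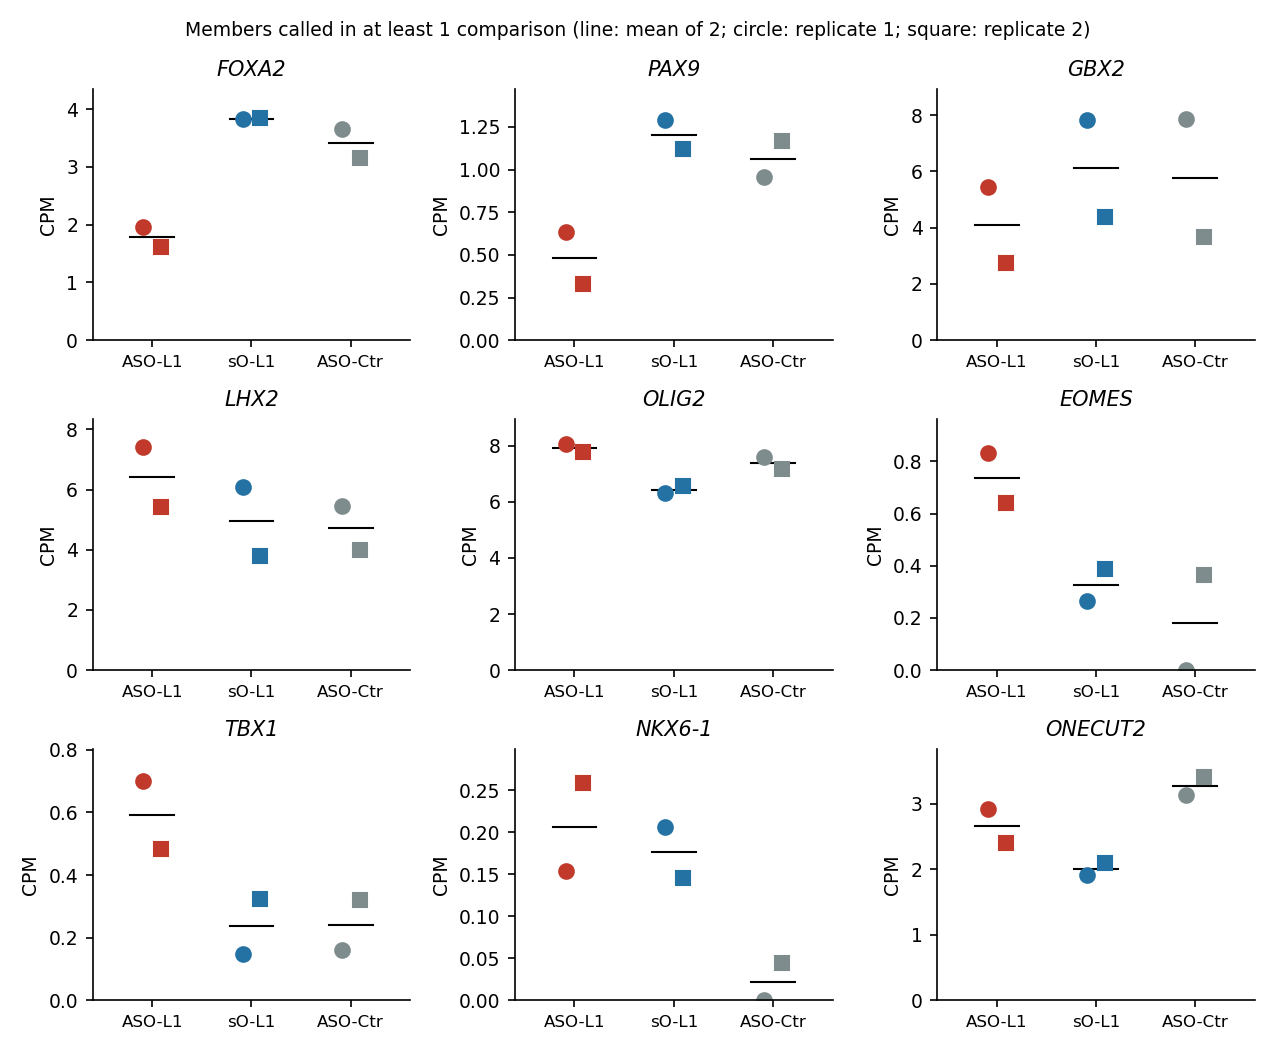
CPM of the 9 members called in at least 1 comparison, for the 2 libraries of each group (circle, replicate 1; square, replicate 2), with the mean as a line; each panel starts at 0. FOXA2 and PAX9 show both ASO-L1 points below the rest, EOMES and TBX1 show them above, and in GBX2 and LHX2 the replicates differ by as much as the groups.

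The 29 untested members had between 0 and 36 counts over all libraries, and no fold change is given for them. MSX1, a craniofacial and limb homeobox gene, had 6 and 2 counts in ASO-L1, 6 and 7 in sO-L1, against 3 and 12 in ASO-Ctr. GATA2, of blood and trophectoderm, had 5 and 6 in ASO-L1, 4 and 6 in sO-L1, against 7 and 5 in ASO-Ctr. Both were seen in every library at a few counts. FOXC1, of paraxial mesoderm and mesenchyme, had 8 and 6 in ASO-L1, 5 and 5 in sO-L1, against 1 and 6 in ASO-Ctr. MEIS1, a cofactor of HOX proteins, had 4 and 10 in ASO-L1, 2 and 6 in sO-L1, against 2 and 1 in ASO-Ctr. The highest level of any untested member in any library was 0.372 CPM, for GATA2 in ASO-Ctr replicate 1.

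Of the remaining untested members 12 had 4 to 19 counts in all and 10 had 1 to 3. HAND1, of trophoblast and heart, FOXF1, of visceral mesoderm, and HOXC4, a homeobox gene of axial patterning, had 0 counts in all 6 libraries. Counts in ASO-L1 and in neither other group were found for 3 untested members (EN1, NEUROG1 and HOXB1), in sO-L1 alone for 3 (NKX2-5, NKX2-2 and EMX2) and in ASO-Ctr alone for 1 (TBX20). These 7 were named after their values were seen, and each had too few counts to read a group from. The 39 genes of the HOX clusters include the HOX members. Of the 39, 13 had at least 1 count and 0 were tested. The whole list summed to 0.121 to 0.241 CPM in ASO-L1, 0.0648 to 0.117 in sO-L1 and 0.0729 to 0.265 in ASO-Ctr.

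The replicate number left a visible mark on several members, a pattern described after the values were seen. In all 3 groups, 9 tested members (37.5%) were higher in replicate 1, PAX8 among them, and 2 (8.33%) were lower. Over all tested genes these shares were 24.6% and 26.4%. On a log2 scale of CPM + 0.1, LHX5 was higher in replicate 1 by 0.99 in ASO-L1, 1.05 in sO-L1 and 1.64 in ASO-Ctr. GBX2 was higher by 0.97, 0.83 and 1.08 in the same order of groups, and EN2 by 1.61, 1.04 and 1.04. These 3 were the tested members at least 1.5-fold higher in replicate 1 in all 3 groups (12.5% of 24, against 0.386% of all tested genes), and 0 were lower by that much (0.334% of all genes). EN2 rests on 2 and 0 counts in ASO-Ctr and 7 and 3 in sO-L1. The members' median SE in ASO-L1 against sO-L1 was 0.29, against 0.09 over all tested genes, so these shares are not on equal terms. The labels do not say what the replicate number stands for.

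**Figure D5:**
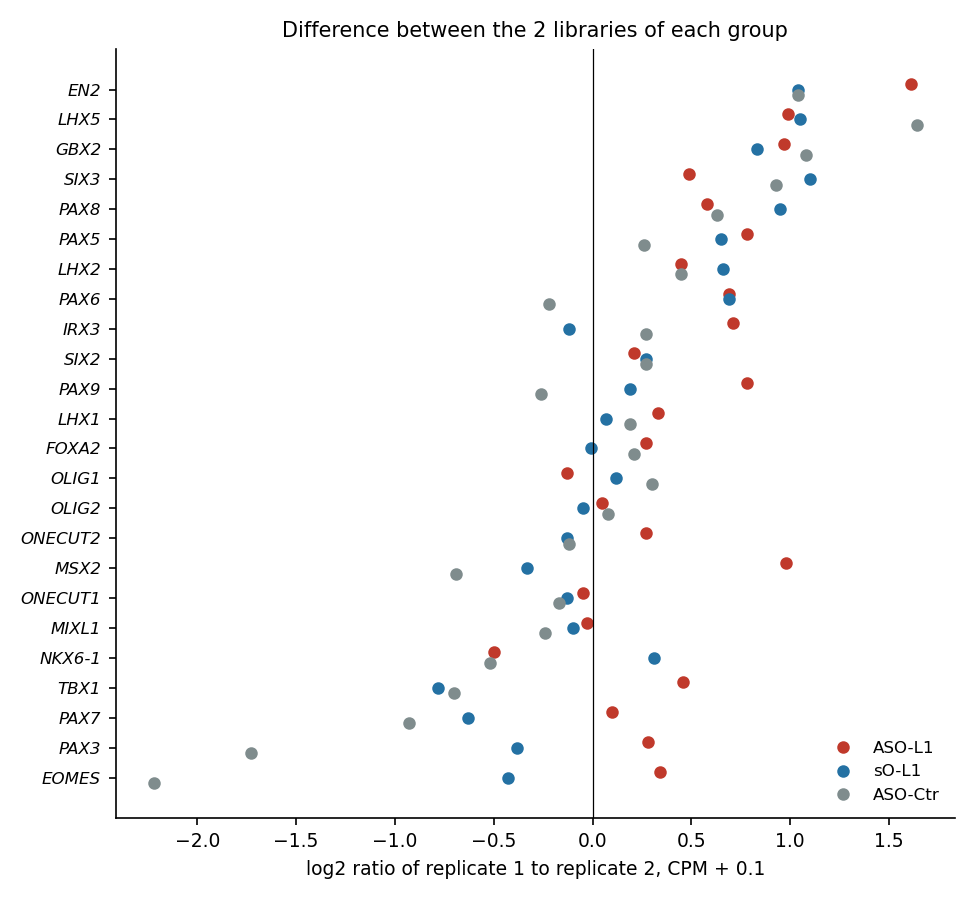
Log2 ratio of replicate 1 to replicate 2 within each group for every tested member, from CPM + 0.1. EN2, LHX5 and GBX2 lie at 0.83 or above in all 3 groups, OLIG2 lies within 0.08 of 0, and EOMES reaches -2.22 in ASO-Ctr, where replicate 1 had 0 counts.

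Other transcription factors of the same kind were compared through a list of 81 genes outside the set, 40 of which were tested. In ASO-L1 against sO-L1, 6 were called higher and 2 lower, against 10.3% and 12.7% of all tested genes, with a median log2 fold change of 0.07. In ASO-L1 against ASO-Ctr the counts were 2 and 2 (9.88% and 11.6% of all tested genes). In sO-L1 against ASO-Ctr they were 0 and 1 (0.658% and 1.06%), and without the block 0 in every comparison. The smallest p-values against sO-L1 belonged to SOX21, a neural SOX factor (1.76 ± 0.10, adjusted p = 1.84e-19, or 0.0596 without the block), IRX2 (0.48 ± 0.06, 1.12e-08, or 0.293), LHX4 (0.39 ± 0.11, 0.00442, or 0.435) and EMX1 (-0.45 ± 0.13, 0.00688, or 0.153). As among the members, genes higher and lower in ASO-L1 were both found.

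The genes that encode Polycomb subunits were all expressed well enough to test. Of 13 genes of Polycomb repressive complex 2 and its cofactors, 4 were called higher and 1 lower in ASO-L1 against sO-L1 (10.3% and 12.7% of all tested genes), 4 and 0 in ASO-L1 against ASO-Ctr (9.88% and 11.6%), and 0 and 0 in sO-L1 against ASO-Ctr. Without the block the counts were 0 and 0, 1 and 0, and 0 and 0. The last comparison had 3 at an unadjusted p under 0.05 with the block and 0 without it. PHF1, an accessory subunit, was higher in ASO-L1 than in sO-L1 by a log2 fold change of 0.43 ± 0.06 (adjusted p = 2.07e-07, or 0.0517 without the block), and the cofactors JARID2 and AEBP2 by 0.22 ± 0.05 and 0.18 ± 0.05 (adjusted p = 0.000399 and 0.00569, or 0.243 and 0.268). RBBP7, a histone chaperone subunit, was lower (-0.19 ± 0.05, adjusted p = 0.00167, or 0.228). Of 20 genes of Polycomb repressive complex 1, 3 were higher and 2 lower in ASO-L1 against both controls, and 0 higher and 1 lower in sO-L1 against ASO-Ctr, with 0 in each without the block. PCGF2 and PCGF1 were higher than in sO-L1 by 0.29 ± 0.06 and 0.38 ± 0.11 (adjusted p = 7.68e-05 and 0.00534, or 0.123 and 0.223), and CBX2 and PHC2 were lower, at -0.23 ± 0.05 and -0.19 ± 0.06 (adjusted p = 0.000193 and 0.0124, or 0.136 and 0.672). The medians of the complexes were 0.11 and 0.06 in that comparison, and 0 over all genes. No relation between these genes and the members was tested.

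The authors' deposited table of ASO-L1 against sO-L1 lists 18 of the 53 members, all among the 24 tested here. In the authors' deposited table, 1 of them was higher and 3 lower at an adjusted p under 0.05, a threshold that 23.2% of its 16753 genes passed. The authors' deposited table gives LHX2 a log2 fold change of 0.41 (adjusted p = 0.016), FOXA2 -1.12 (1.17e-05), GBX2 -0.58 (0.000753) and PAX9 -1.37 (0.00127). In the authors' deposited table OLIG2, TBX1 and EOMES, called here, stand at 0.30, 1.15 and 0.96 with adjusted p-values of 0.0566, 0.0664 and 0.227. That table rests on the same libraries and is no independent evidence.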

How the data were processed

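Poly(A) RNA of 6 libraries, 2 per group, was analysed from the deposited tables. Per the submitters' processing notes, the tools were Trim Galore 0.4.0, TopHat2 2.0.13, and featureCounts from the Subread 1.5.0 package, on the hg19 build; the strand setting is not given in the sources used here. The deposited table holds unnormalized counts by gene symbol; its name, given in the labels, marks duplicates as removed. Its 92 spike-in entries (9 counts) were left out. The header of the count table starts 1 cell early, and each count column correlated best with the same-named column of the authors' deposited log2 table (6 of 6 columns). That log2 table holds batch-corrected log2 values, per the labels, and was used for this check only. For ASO-L1 against sO-L1 the authors' deposited log2 fold changes and p-values were read from a separate table.

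CPM values were computed from the deposited counts with TMM scaling (factors 0.983 to 1.02). Genes were kept by filterByExpr (minimum count 10, minimum total 15) and tested by quasi-likelihood in edgeR 4.0.16 (R 4.3.3), with terms for group and for replicate number, 1 fit over the 6 libraries and Benjamini-Hochberg adjustment over 19156 genes. SE was obtained by dividing the size of the log2 fold change by the root of F. The block follows the labels' mention of a batch-corrected table; with 2 numbers it is not established that they pair the libraries, so the adjusted p without the block stands beside each call. Before moderation each gene had 2 residual degrees of freedom. Moderation added a median of 44.8 prior degrees of freedom from the other genes, so SE and p rest largely on a spread shared across genes. Alternatives were other scalings, filters and thresholds, DESeq2 1.42.0, limma-voom (limma 3.58.1), no block, the 4 libraries compared, and each library left out. The script was tested on simulated data. Every tested member is named, with full statistics where it was called; untested members are named from 20 counts in all or at 0 everywhere, and up to 4 genes of each other list by smallest p. The members and lists were chosen with earlier results of these data known, and 1 marker list is not reported here.

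Overlapping genes and exon lengths came from GENCODE 29 (GRCh38), by symbol, not from hg19. Of the tested members 12 have exons that overlap another gene there, 11 of them on the opposite strand. The remaining member is FOXA2, which overlaps AL121722.1 on the same strand, where counting by strand could not separate the pair. Intervals and floors cover counting error only.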

Additional observations from a re-analysis of the deposited data

How the results depend on the processing

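Without the replicate block, edgeR called 0 members higher and 1 lower in ASO-L1 against sO-L1, where 4 and 3 were called with it, and 0 and 1 in ASO-L1 against ASO-Ctr, where 3 and 3 were. In sO-L1 against ASO-Ctr it called 0 lower in place of 1. Whether the replicate numbers pair the libraries was checked by the correlation of the replicate differences between groups (0.461, 0.354 and 0.426), but with 2 numbers that is no proof of pairing. With DESeq2, 0 members were higher against sO-L1, 0 higher and 1 lower against ASO-Ctr, and 0 lower in sO-L1 against ASO-Ctr. It gave no adjusted p for 17, 17 and 24 of the 24 members in the 3 comparisons, which are left out of its lost calls. Limma-voom gave 1 higher against sO-L1, 4 higher against ASO-Ctr (EN2 added, adjusted p = 0.00902) and 0 lower in sO-L1 against ASO-Ctr. A fold of at least 1.5 left 2 higher against sO-L1, and an adjusted p under 0.1 gave 5 higher against ASO-Ctr.

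With each library left out in turn, the members called higher ranged from 0 to 4 and lower from 2 to 3 in ASO-L1 against sO-L1, higher from 0 to 3 and lower from 1 to 3 in ASO-L1 against ASO-Ctr, and lower from 0 to 1 in sO-L1 against ASO-Ctr. Those fits assume that a lone library varies like the other groups. Over all 3 comparisons, the 9 called members had 350 values under the alternatives. Many came from comparisons in which the member was not called and so could not lose a call. The share lost is therefore no rate among the calls. Of the 350 values, 292 kept direction and side of the threshold and 50 lost the call. A further 1 gained it (TBX1, ASO-L1 against ASO-Ctr, 2.19 without ASO-L1 replicate 2) and 7 changed sign. Over the libraries left out, the ranges of these results were -0.12 to 6.96 for EOMES (a library at 0 sets its top), -0.17 to 0.58 for PAX9, -1.01 to 0.70 for TBX1 and -0.06 to 0.15 for LHX2 in sO-L1 against ASO-Ctr, and -0.51 to 0.88 for NKX6-1 in ASO-L1 against sO-L1. The changes of sign in sO-L1 against ASO-Ctr were EOMES at -0.12, PAX9 at -0.17 and LHX2 at 0 without ASO-Ctr replicate 1, TBX1 at 0.70 without ASO-Ctr replicate 2, and TBX1 at 0.26 and LHX2 at -0.06 without sO-L1 replicate 1. In ASO-L1 against sO-L1, NKX6-1 stood at -0.51 without sO-L1 replicate 2. None of these 7 was a call. The cause was not tested. A detection minimum of 10 counts left 23 and 23 members in ASO-L1, 16 and 20 in sO-L1, against 14 and 23 in ASO-Ctr.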
